A study of Mus musculus with 59 samples.

Results

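The circadian clock genes described here are 10 named genes, Arntl, Clock, Npas2, Per1, Per2, Per3, Cry1, Cry2, Nr1d1 and Dbp, chosen by name and not by their values, out of 51456 genes listed in the deposited table. All 10 passed the minimum mean of 10 normalized units that left 16839 genes for testing. They were measured by RNA sequencing of polyadenylated RNA in 59 libraries of mouse prefrontal cortex, the frontal region dissected from C57BL/6J animals aged 25 postnatal days. The pups were not dosed directly: fluoxetine, lithium or vehicle reached them through the mother's milk from day 3 to day 24, so the dose of each pup is unknown here. Genotype is labelled HT or WT for Chd8-S62X, an allele of the chromatin remodeller gene Chd8. Crossed with treatment and sex, this gives 12 groups of 5 libraries, except for 4 in HT-labelled fluoxetine females, for 20 vehicle, 19 fluoxetine and 20 lithium libraries in all. The time of day at dissection, the litter and the dam are not in the labels used here, and the p-values measure only the spread between these samples.

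The clock is a loop of transcription and repression that runs in nearly every cell. Arntl (also called Bmal1) and Clock, or its brain relative Npas2, form an activator pair that binds E-box sequences and switches on the Per and Cry genes, whose proteins return to the nucleus and repress that pair. Nr1d1 (Rev-erb alpha), itself an E-box target, represses Arntl, and Dbp, a further E-box target, carries the rhythm to output genes through D-box sequences. Per1 and Per2 can also be switched on quickly by neuronal activity and by glucocorticoids. Lithium inhibits GSK3, a kinase that acts on several clock proteins, and fluoxetine blocks serotonin reuptake.

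Deposited values summed to 30.3 to 33.7 M per library, with a depth estimated at 25.8 to 36.9 M reads. Chd8 itself was higher in the HT-labelled libraries (5115 to 6626, median 5907) than in the WT-labelled ones (2828 to 4229, median 3635), with no overlap, so the genotypes are named by their labels throughout. Markers of the suprachiasmatic nucleus, the brain's central clock, were mixed. Avp reached at most 7.15, Nms 2.54 and Six6 2.37, while Lhx1 and Prok2 reached at most 37.2 and 49.4. Vip was 1080 to 1911, Rgs16 159 to 296 and Grp 70.2 to 195. Cortical excitatory neuron markers were high in every library (mean log2 level 11.2 to 12.2 over 6 genes). Olfactory bulb markers ranged from 4.60 to 11.1 over 5 genes, and striatal markers stood more than 5 robust SDs above the median in 8 libraries. In whole tissue, fewer cells of a type and less RNA per cell cannot be told apart.

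Promoter sequence was matched by symbol in a RefSeq table (GRCm38.p6) for 9 of the 10 genes, and there is no entry for Per2. The 250 bases before each listed start were searched on both strands for 5 motifs. The E-box was CACGTG, which reads the same on both strands. A variant of the E-box was CACGTT, which appears reversed when it lies on the other strand. The D-box was TTATGTAA, which Dbp and its relatives bind. The cyclic AMP response element was TGACGTCA. The ROR element core, bound by Nr1d1 and its activating counterparts, was TNGGTCA. Matches of different motifs did not overlap in the windows shown. Of all 32851 promoter windows of that length, 6.02% held the E-box, 3.85% the variant, 0.819% the D-box, 1.55% the cyclic AMP response element and 9.19% the ROR core. The stretches below are shown for genes whose levels moved together or apart across libraries, and for Ciart, the gene most like Dbp. They are trimmed to bases outside annotated exons, read 5′ to 3′ on the gene's strand, and have every match in capitals.

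Per1, chr11:69098699-69098947, plus strand: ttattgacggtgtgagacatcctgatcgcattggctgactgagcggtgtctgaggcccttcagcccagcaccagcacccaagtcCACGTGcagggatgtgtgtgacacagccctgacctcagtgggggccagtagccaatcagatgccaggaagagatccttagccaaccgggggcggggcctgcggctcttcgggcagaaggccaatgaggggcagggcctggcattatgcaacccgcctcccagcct
Cry1, chr10:85185065-85185304, minus strand: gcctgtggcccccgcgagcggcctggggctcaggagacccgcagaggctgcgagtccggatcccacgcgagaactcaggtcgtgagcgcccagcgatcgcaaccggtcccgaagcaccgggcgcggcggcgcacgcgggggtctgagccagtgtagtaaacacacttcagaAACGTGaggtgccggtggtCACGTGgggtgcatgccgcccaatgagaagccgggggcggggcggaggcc
Cry2, chr2:92434070-92434319, minus strand: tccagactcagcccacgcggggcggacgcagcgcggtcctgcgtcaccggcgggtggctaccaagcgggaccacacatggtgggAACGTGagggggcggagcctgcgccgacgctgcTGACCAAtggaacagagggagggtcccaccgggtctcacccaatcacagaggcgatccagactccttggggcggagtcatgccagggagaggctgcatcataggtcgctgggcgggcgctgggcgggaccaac
Nr1d1, chr11:98775378-98775627, minus strand: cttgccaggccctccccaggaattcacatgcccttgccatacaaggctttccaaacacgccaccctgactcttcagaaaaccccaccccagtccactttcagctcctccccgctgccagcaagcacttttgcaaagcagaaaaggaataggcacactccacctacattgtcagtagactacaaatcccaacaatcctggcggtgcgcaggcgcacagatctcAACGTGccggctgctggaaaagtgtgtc
Per3, chr4:151044666-151044915, minus strand: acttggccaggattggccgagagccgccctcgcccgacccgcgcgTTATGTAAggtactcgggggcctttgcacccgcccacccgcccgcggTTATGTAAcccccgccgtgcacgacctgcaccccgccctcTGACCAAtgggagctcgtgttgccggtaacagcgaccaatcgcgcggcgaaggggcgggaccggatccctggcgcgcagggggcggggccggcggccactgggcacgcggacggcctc
Ciart, chr3:95882252-95882478, minus strand: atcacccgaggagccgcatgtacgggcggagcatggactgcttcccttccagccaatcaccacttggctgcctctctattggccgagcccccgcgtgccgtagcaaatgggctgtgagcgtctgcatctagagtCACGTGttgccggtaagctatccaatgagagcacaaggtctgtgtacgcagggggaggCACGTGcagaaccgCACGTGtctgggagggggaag

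The first listed start of Per1 held 1 E-box, Cry1 held 1 E-box and 1 variant, Cry2 and Nr1d1 held 1 variant each, and Ciart, a repressor of the activator pair, held 3 E-boxes. Per3 alone among the members held the D-box, at 2 positions. Cry2 and Per3 each had 1 match to the ROR core, written TGACCAA in the stretches shown. Arntl had 2, the same 2 sites in the overlapping windows of both its listed starts. None of the 5 motifs was matched in the windows of Clock, Npas2 or Dbp, or at the second listed start of Per1. The Per1 stretch lies within the longer span annotated for that gene (chr11:69095217-69109960), outside its exons. A match is a description of these letters only, and no binding was measured.

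Dbp was the only clock gene that limma called with lithium against vehicle before covariates or a block were added, beside 4.41% of all genes. Its normalized value was 1134 to 1708 (median 1418) in the 20 lithium libraries, 1318 to 2109 (median 1599) in the 20 vehicle libraries and 1253 to 2189 (median 1624) in the 19 fluoxetine libraries. Of the lithium libraries, 17 of 20 lay below the vehicle median, although the ranges overlapped.

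In HT-labelled females Dbp was 1778, 1704, 1741, 1695 and 1412 with vehicle and 1420, 1489, 1134, 1274 and 1415 with lithium. In HT-labelled males it was 1597, 1582, 1471, 1742 and 1814 with vehicle and 1468, 1708, 1490, 1308 and 1306 with lithium. The lithium libraries were the lower set in both sexes, and the overlap came mainly from the vehicle female at 1412 and the lithium male at 1708.

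In WT-labelled females Dbp was 1663, 1522, 2109, 1318 and 1490 with vehicle and 1346, 1520, 1506, 1605 and 1356 with lithium. In WT-labelled males it was 1514, 1526, 1365, 1688 and 1601 with vehicle and 1360, 1646, 1450, 1256 and 1351 with lithium. The sets overlapped in all 4 strata, and the group mean was lower with lithium in 4 of 4.

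Averaged over the 4 strata, Dbp fell by 0.19 ± 0.051 (SE) on the log2 scale with lithium (95% interval −0.29 to −0.08, a change of −12.0%, limma adjusted p = 0.0239). It was the only one of the 10 genes to pass, beside 4.41% of all genes tested (742 of 16839, and 1.61% in the lower direction). The call held when each of the 59 libraries was left out in turn (adjusted p 0.0134 to 0.0470). Sphk2, which lies antisense to Dbp and shares 539 exon bases (18% of those of Dbp), had a lithium difference of 0.03 ± 0.024 (limma adjusted p = 0.560).

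Levels of some marker lists moved with Dbp across libraries. With group means removed, Dbp had r = 0.455 with the oligodendrocyte level (rho 0.459, adjusted permutation p 0.00539 and 0.00564) and −0.406 with the olfactory bulb level (rho −0.363, adjusted permutation p 0.0265 and 0.0428). Its r was 0.316 with the cortical excitatory neuron level (rho 0.340), −0.192 with the meningeal fibroblast level (−0.225) and 0.187 with the striatum level (0.192), none of which passed (adjusted permutation p 0.0750, 0.292 and 0.338 for r). Without the 2 farthest libraries the 5 values were 0.399, −0.465, 0.336, −0.251 and 0.0799. Males gave 0.620, −0.365, 0.295, −0.270 and 0.345, and females gave 0.211, −0.463, 0.354, −0.0636 and 0.0145. The suprachiasmatic nucleus level rested on the 4 of its 8 markers that were tested, Vip, Prok2, Rgs16 and Grp. Avp, Nms, Lhx1 and Six6 were too low to enter it. This 4-gene level had r = −0.412 with Dbp (rho −0.387, adjusted permutation p 0.0231 and 0.0244). That r was −0.396 without the 2 farthest libraries, −0.216 in males and −0.656 in females. With lithium, 4 of 6 oligodendrocyte markers were below 0 (median −0.02, 0 called), as were 5 of 5 olfactory bulb markers (−0.27, 0 called) and 6 of 6 meningeal fibroblast markers (−0.33, with Lum called). Above 0 were 10 of 10 striatum markers (0.24, with Pde10a called) and 5 of 6 cortical excitatory markers (0.12, 0 called). Of all genes, 4.41% were called in the same lithium contrast. The Dbp difference was −0.20 with the olfactory bulb level as a covariate (adjusted p = 0.00660), −0.20 with the striatum level (0.0173) and −0.20 without the 8 striatum-rich libraries (0.0427). The part of the other marker levels was not tested.

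**Figure D1:**
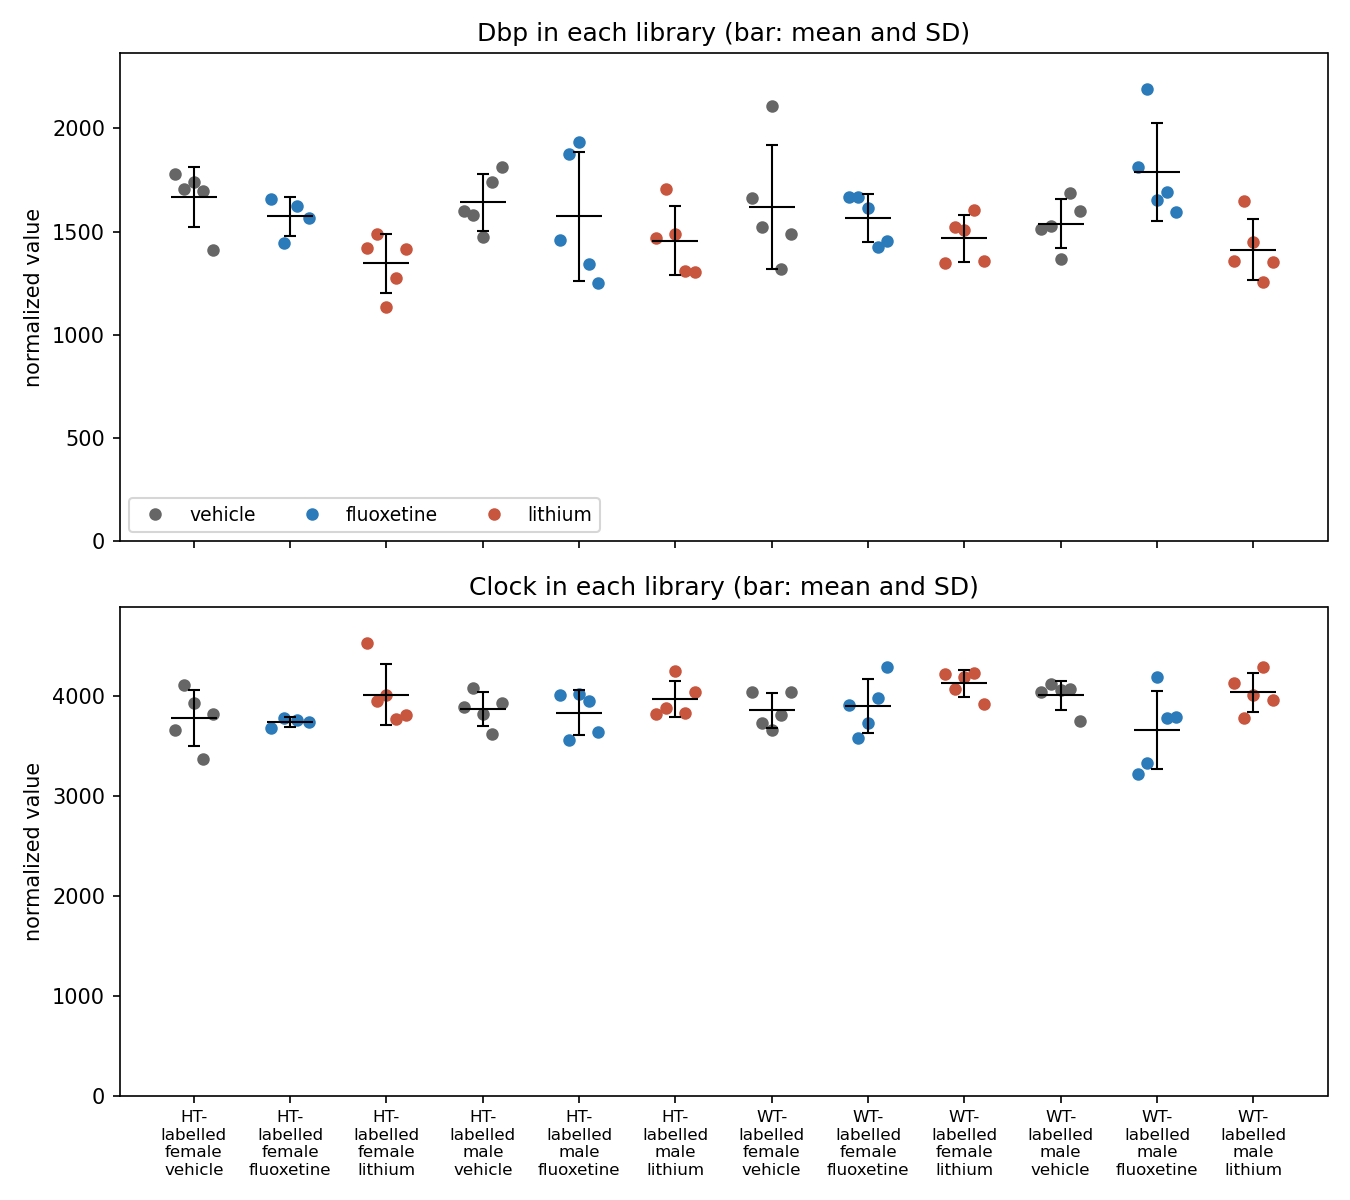
Normalized value (vertical axis) of Dbp, upper panel, and Clock, lower panel, in each of the 59 libraries by genotype label, sex and treatment (horizontal axis). Points are libraries, the bar is the group mean and the whiskers 1 SD; the lithium means of Dbp lie below the vehicle means in all 4 strata, while single libraries overlap.

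The lithium difference of Dbp was −0.24 ± 0.072 in HT-labelled and −0.13 ± 0.072 in WT-labelled libraries (limma adjusted p = 0.158 and 0.506, neither of which passed). The difference between them was −0.11 ± 0.10 (limma adjusted p = 1), so a genotype dependence was not shown. Of the 10 genes, 0 were called with lithium in HT-labelled libraries (background 0.238%) and 0 in WT-labelled libraries (background 0.214%), with 2 and 1 at an unadjusted p under 0.05. The interaction also called 0 of 10 genes, with 0 at an unadjusted p under 0.05, and 0% of all genes.

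Nr1d1 and Per3 each had a lower lithium mean in 3 of 4 strata, and neither passed. Of the lithium libraries, 13 of 20 were below the vehicle median for Per3. The value of Nr1d1 was 1637 to 2689 (median 2265) with lithium, 2059 to 3095 (median 2459) with vehicle and 1922 to 3607 (median 2335) with fluoxetine, with 15 of 20 lithium libraries below the vehicle median. The averaged difference of Nr1d1 was −0.16 ± 0.069 (limma adjusted p = 0.191). It was −0.27 ± 0.097 in HT-labelled libraries (limma adjusted p = 0.264) and −0.05 ± 0.097 in WT-labelled libraries (limma adjusted p = 0.904). Whether the lithium differences of Nr1d1 and Dbp were unlike was not tested. Nr1d1 passed in the averaged contrast when the first principal component (adjusted p = 0.0179), the immediate early level (0.0129) or the olfactory bulb level (0.0481) was added as a covariate, and with the replicate number as a block (0.0483). Thra, whose exons overlap those of Nr1d1 on the other strand by 263 bases (8.55%), had a difference of 0.01 ± 0.035.

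The remaining 8 members had averaged lithium differences from −0.03 (Per3) to 0.11 (Per2), none of which passed. Per2 was 1104 to 2064 (median 1785) with lithium and 1249 to 2348 (median 1505) with vehicle, a difference of 0.11 ± 0.065 (limma adjusted p = 0.344). Per1 differed by 0.09 ± 0.10, with −0.08 in HT-labelled and 0.27 in WT-labelled libraries, and Clock by 0.06 ± 0.027 (limma adjusted p = 0.672 and 0.233). Arntl had a difference of 0.07, Cry1 of 0.08, Npas2 and Cry2 of 0.03 each. Of the 10 members 7 were above 0 with lithium, with a median of 0.05, against 49.8% of all genes above 0 and a median of −0.0004.

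Against fluoxetine, 2 of 10 clock genes passed in the lithium libraries, beside 8.88% of all genes (4.51% higher and 4.37% lower). Clock was 3773 to 4530 (median 4014) with lithium and 3223 to 4295 (median 3785) with fluoxetine, and was higher by 0.09 ± 0.028 (6.77%, limma adjusted p = 0.0225). Dbp was lower by 0.19 ± 0.052 (limma adjusted p = 0.0139). These 2 comparisons share their lithium libraries with the contrast against vehicle, so the Dbp value is not a second measurement of it. Per2 was 0.17 ± 0.066 higher and Nr1d1 0.18 ± 0.070 lower without passing (limma adjusted p = 0.0919 and 0.0894). The call changed when 1 library was left out: Per2 passed without HT-labelled lithium female replicate 5 (0.0329) and Nr1d1 without HT-labelled fluoxetine male replicate 4 (0.0341). Each also passed in 4 of 11 alternative fits. For Per2 these were the first principal component (adjusted p = 0.0219), the olfactory bulb level (0.0290), the replicate block (0.0142) and the fit without the 8 striatum-rich libraries (0.0474). For Nr1d1 they were the first principal component (0.0314), the immediate early level (0.00184), the olfactory bulb level (0.0498) and the replicate block (0.0208).

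Fluoxetine against vehicle called 0 of the 10 genes by limma, with 0 at an unadjusted p under 0.05, beside 0.0653% of all genes. The differences ran from −0.06 (Per2) to 0.04 (Npas2), and that of Dbp was 0.004 ± 0.052 (95% interval −0.10 to 0.11). HT- against WT-labelled libraries called 0 of 10, with 0 unadjusted, beside 7.98% of all genes. The largest was Per2 at −0.11 ± 0.054 (95% interval −0.21 to 0.0004, limma adjusted p = 0.209), and 8 of 10 members were below 0. Sex called 0 of 10 with 1 unadjusted (Cry1, female minus male −0.09), beside 0.154% of all genes. Within vehicle, fluoxetine or lithium, genotype called 0 of 10 each, beside 0.202%, 0.849% and 0.267% of all genes, with 0, 1 and 0 unadjusted. Fluoxetine called 0 of 10 in HT-labelled and in WT-labelled libraries, beside 0% and 0.19%, with 0 unadjusted in each.

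**Figure D2:**
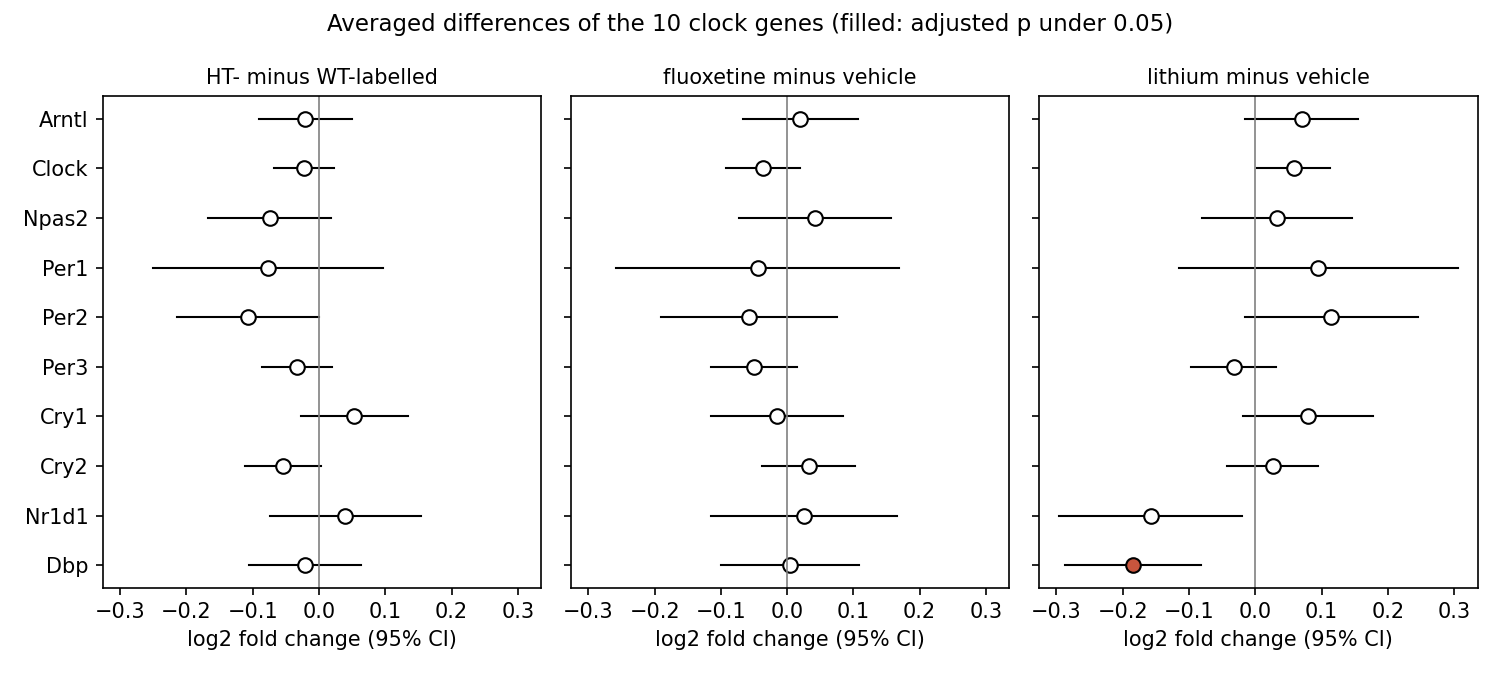
Log2 fold change (horizontal axis) with its 95% confidence interval for each of the 10 genes (rows) in the 3 averaged contrasts of genotype label, fluoxetine and lithium. Filled points passed an adjusted p of 0.05; Dbp with lithium is the single filled point.

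In the 14 comparisons of 1 genotype or drug within 1 stratum, 0 of 140 member tests passed (lowest limma adjusted p 0.395), and 9 had an unadjusted p under 0.05, which is 6.43% against 7.05% over all genes. Of all genes, 0% were called in 7 of the 14, and 0.0238%, 0.0297%, 0.0475% or 0.0534% in the others. In 3 of the 140 the groups did not overlap, beside 1.46% of the same comparisons over all genes. Per1 and Cry2 were both higher with lithium in WT-labelled males, where Per1 was 3624, 3624, 3916, 3097 and 2599 against 2492, 2282, 2314, 2332 and 2592 with vehicle. In that stratum 0% of all genes were called and 1.97% did not overlap. Nr1d1 was higher in HT- than WT-labelled vehicle males, at 2904, 3095, 2500, 2665 and 2821 against 2478, 2452, 2059, 2300 and 2183, in a comparison that called 0.0238% of all genes and where 1.03% did not overlap.

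The other genes of the pathway were 9 loop partners, 6 output genes and 8 genes of clock protein turnover. Of the 23, 0 were called by limma with lithium or fluoxetine against vehicle, beside 4.41% and 0.0653% of all genes, so the count of 0 says nothing particular about these genes. Gsk3b, the kinase that lithium inhibits, was higher with lithium than with fluoxetine by 0.09 ± 0.028 (limma adjusted p = 0.0433), a call lost in 20 of 59 fits that left out 1 library (adjusted p up to 0.0798). Nr1d2, the second Rev-erb gene, had a lithium difference of −0.06 ± 0.022 and Ciart one of −0.10 ± 0.082 (limma adjusted p = 0.0988 and 0.543). Tef and Hlf, the relatives of Dbp that bind the same D-box, differed by −0.0006 ± 0.024 and 0.01 ± 0.049 with lithium.

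Genes that report cues known to reset or shift clock genes were counted from the same contrasts. Immediate early genes, which respond to neuronal activity within minutes, were above 0 with lithium for 11 of 11 genes (median 0.24), against 49.8% of all genes. Of the 11, 0 passed, beside 4.41% of all genes. Against fluoxetine, 1 of the 11 was called, beside 8.88% of all genes. This was Btg2, an antiproliferative early gene, higher by 0.44 ± 0.11 (limma adjusted p = 0.00575). Among 8 temperature-responsive genes, Cirbp, a cold-inducible RNA-binding protein that itself has a daily rhythm, fell by 0.22 ± 0.049 with lithium (limma adjusted p = 0.00598), from a median of 1473 to 1281. It was also lower by 0.30 ± 0.050 against fluoxetine, where the heat-shock gene Hspa1b was higher by 0.35 ± 0.075 and the chaperone gene Hsp90aa1 lower by 0.10 ± 0.032 (limma adjusted p = 0.000109, 0.00186 and 0.0471). The Hsp90aa1 call was lost in 32 of 59 fits that left out 1 library (adjusted p up to 0.0799). In the HT-labelled libraries Hspa1a was higher by 0.15 ± 0.037 and the glucocorticoid-induced Zbtb16 lower by 0.18 ± 0.051 (limma adjusted p = 0.00796 and 0.0195). These were 1 of 8 temperature-responsive and 1 of 10 glucocorticoid-induced genes, beside 7.98% of all genes called. Among the alternative fits, the call was lost in 3 of 11 for Gsk3b (adjusted p up to 0.0820), 1 of 11 for Btg2 (0.0619), 5 of 11 for Hsp90aa1 (0.119) and 1 of 10 for Hspa1a (0.0894). The part of these cues in the clock gene values was not tested.

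The clock genes differed widely in how much they varied between libraries of 1 group. Per1 ranged from 1668 to 5018 over all 59 libraries, 3.01-fold, and its SD within groups was 0.34 on the log2 scale, 3.65 times that of genes at its level. The same ratio was 2.41 for Nr1d1, 2.15 for Per2, 1.79 for Npas2 and 1.68 for Dbp. Clock was the steadiest at 0.942, ranging from 3223 to 4530 (1.41-fold), and Per3, Cry1, Cry2 and Arntl lay between 1.03 and 1.23. The 12 groups accounted for 34.5% of the variance of Dbp and 29.1% of that of Clock, against a median of 22.3% over all genes. For Per1 the share was 21.5%, near that median, and for every member most of the spread lay between libraries of 1 group. That spread was not even over replicate numbers, whose meaning is not given in the sources used here. The number took 50.6% of the within-group variance of Nr1d1, 48.0% of that of Per1, 47.1% of Per2, 44.3% of Arntl and 41.0% of Cry2, against a median of 12.8% over all genes. For the other 5 members it took 5.50% (Clock) to 31.7% (Npas2). Whether the number marks an order or day of collection was not tested.

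**Figure D3:**
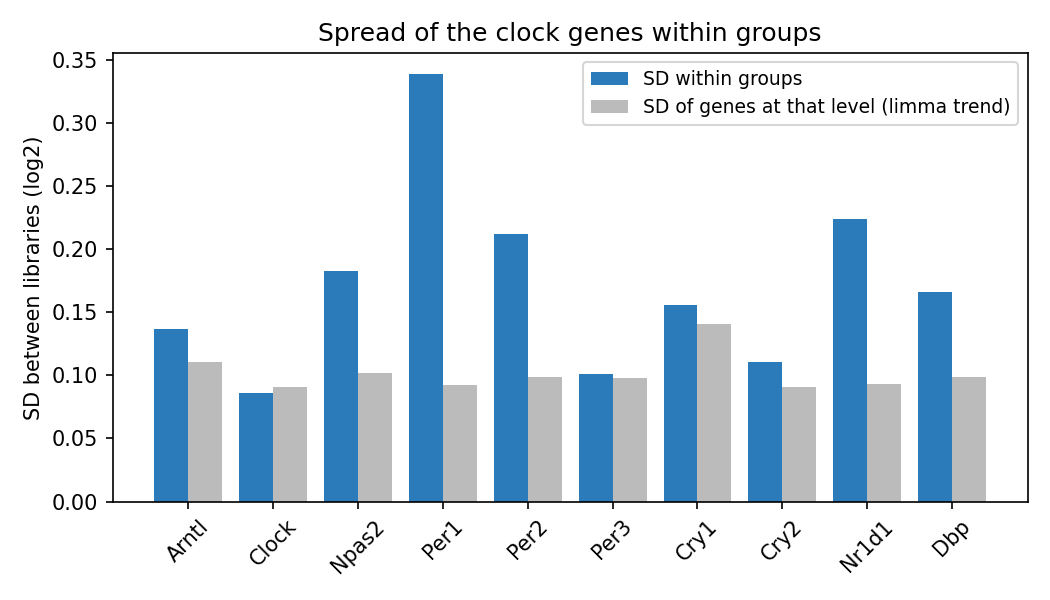
SD between libraries within groups on the log2 scale (vertical axis) for each clock gene, beside the SD that limma's trend gives to genes of the same mean level. Per1 stands at 0.34 against 0.09, while Clock lies at 0.09 on both.

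After each library's group mean was subtracted, 10 of the 45 pairs of clock genes had an absolute Pearson r of at least 0.5 over the 59 libraries, all positive. That is 22.2% of pairs, against 8.17% of the 141767541 pairs among all tested genes, and the median r was 0.159 against −0.001. By permutation of libraries within groups, 21 pairs passed at an adjusted p of 0.05 over the 45 pairs, 17 positive and 4 negative. This permutation was not run over all gene pairs, so the 21 have no such share beside them. The weakest passing pairs of each sign were Npas2 with Nr1d1 (r 0.334) and Clock with Cry1 (−0.347). They lay at percentiles 89.1 and 10.1 of r over all gene pairs.

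Per1, Per2, Cry2 and Nr1d1 formed a block of positive pairs. Per3 and Cry1, also of the repressing arm, were outside it before any level was regressed out, with r of −0.456 to −0.005 with these 4 genes. Within the block, Per2 and Cry2 had the highest r at 0.849 (Spearman 0.847), followed by Per1 with Per2 at 0.784 (0.759), Per1 with Cry2 at 0.761 (0.738), Per1 with Nr1d1 at 0.749 (0.751) and Cry2 with Nr1d1 at 0.701 (0.727). For these 5 pairs the permutation p was 1e-05, the smallest that 100000 permutations can give, and 7.5e-05 after adjustment, for r and rho alike. Without the 2 libraries farthest from the median of the first gene, r was 0.838, 0.749, 0.720, 0.755 and 0.721. It was 0.858, 0.830, 0.865, 0.661 and 0.627 in males and 0.872, 0.743, 0.655, 0.822 and 0.827 in females. These permutations treat the libraries of a group as exchangeable, although the replicate number took a large share of the spread of these genes. With the replicate number also removed, r was 0.761, 0.617, 0.585, 0.522 and 0.470 for the same 5 pairs. Of the 45 pairs, 5 then had an absolute r of at least 0.5, without a share over all gene pairs beside it. The remaining pair of the block, Per2 with Nr1d1, was the weakest at 0.613 (rho 0.641, adjusted permutation p 7.5e-05 for both). It was 0.648 without the 2 farthest libraries, 0.442 in males and 0.744 in females. With group means kept it was 0.410, and with the replicate number also removed 0.311.

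Nr1d1 and Dbp, both E-box targets, had r = 0.566 (rho 0.562, permutation p = 0.00015 and 1e-04, adjusted 0.00075 and 0.000643), with 0.681 in males, 0.474 in females and 0.548 without the 2 farthest libraries. Arntl, which peaks opposite to the Per genes in a rhythmic tissue, was positively related to Per2 (r 0.541, rho 0.509) and Cry2 (0.524 and 0.542), with adjusted permutation p of 0.00045, 0.00171, 0.00104 and 0.000731. Without the 2 farthest libraries these were 0.507 and 0.524, and in males and females 0.472 and 0.609 for Per2 and 0.453 and 0.632 for Cry2. With the replicate number also removed they were 0.235 for both. Arntl and Dbp had r = −0.175 (rho −0.120, permutation p = 0.266 and 0.420, adjusted 0.363 and 0.485), −0.363 in males and 0.055 in females.

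The negative pairs were led by Per3 and Nr1d1 at −0.456 (rho −0.488, adjusted permutation p 0.00405 and 0.00184; −0.501 without the 2 farthest libraries; −0.327 in males and −0.576 in females). Cry1 was negatively related to genes of both arms: it had r = −0.446 with Npas2, −0.407 with Nr1d1 and −0.347 with Clock (adjusted permutation p 0.00875, 0.00858 and 0.0403), and −0.201 with its relative Cry2, which did not pass (0.236). Their rho was −0.369, −0.410, −0.304 and −0.219 (adjusted permutation p 0.0259, 0.009, 0.0673 and 0.186). Without the 2 farthest libraries r was −0.356, −0.395, −0.255 and −0.189. Per3 was thus unlike Per1 and Per2 (r −0.195 and −0.038, adjusted permutation p 0.279 and 0.866).

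**Figure D4:**
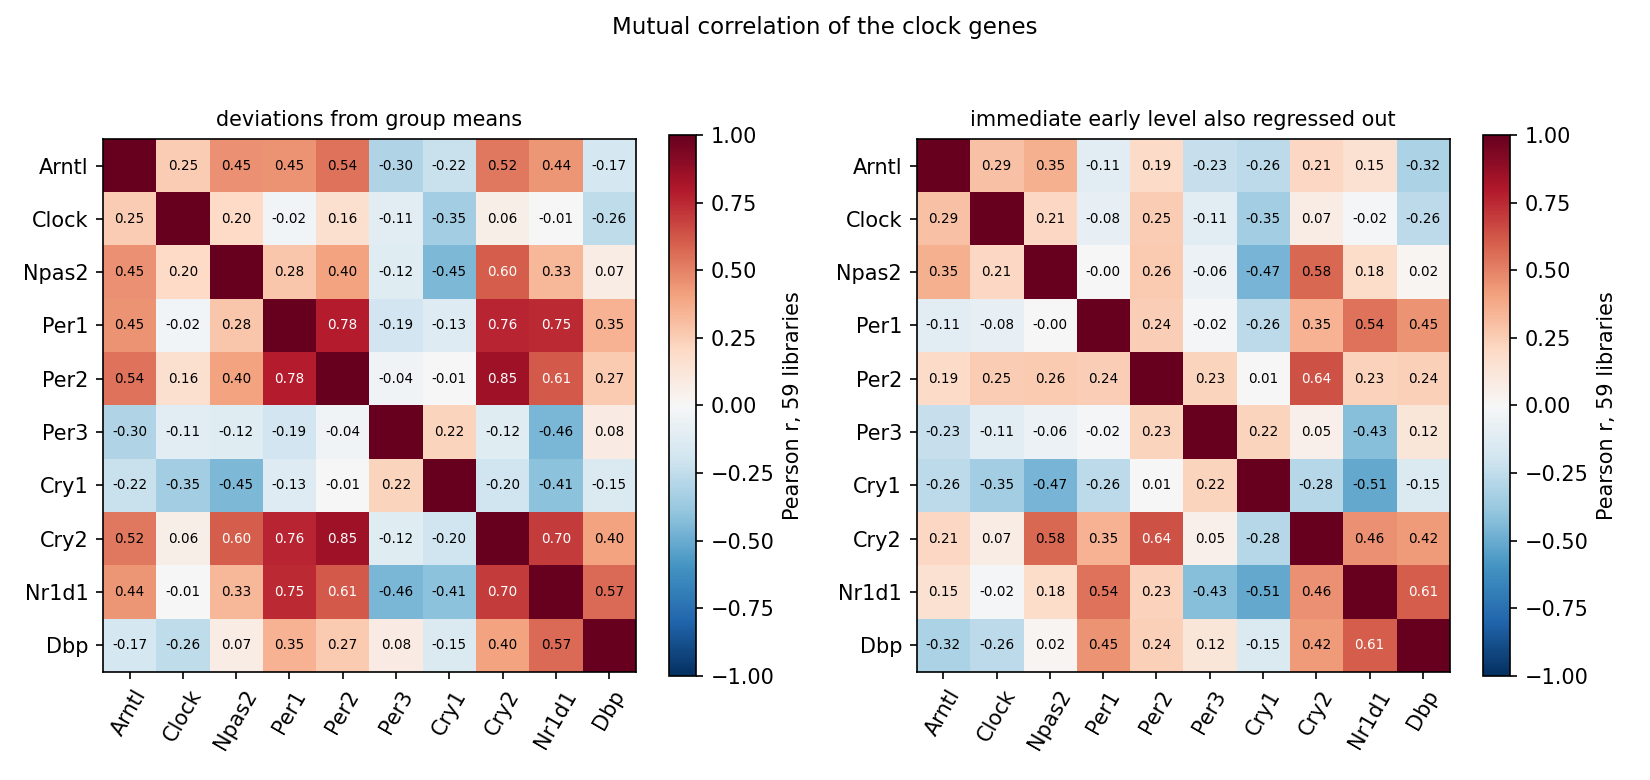
Pearson r between each pair of the 10 clock genes over 59 libraries, red for positive and blue for negative, with group means removed (left) and with the level of 11 immediate early genes also regressed out (right). The block of Per1, Per2, Cry2 and Nr1d1 on the left pales on the right, where Per1 with Per2 goes from 0.784 to 0.244, while Nr1d1 with Dbp stays at 0.606.

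The genes of this block varied with the immediate early genes, and with marker levels of library composition as well. Across libraries with group means removed, Per1 had r = 0.888 with the mean log2 level of the 11 immediate early genes (rho 0.851), Per2 0.808 (0.751), Cry2 0.736 (0.692), Nr1d1 0.625 (0.590) and Arntl 0.552 (0.494). Permutation p ranged from 1e-05 to 5e-05 for r, and adjusted over 170 relations of members with list levels from 0.00017 to 0.000425 (0.000155 to 0.00163 for rho). Without the 2 farthest libraries r was 0.868, 0.769, 0.684, 0.638 and 0.549. In males it was 0.886, 0.877, 0.756, 0.398 and 0.421, and in females 0.889, 0.748, 0.733, 0.807 and 0.684. Dbp, Clock, Cry1 and Per3 had r of 0.159, 0.015, −0.010 and −0.209 (rho 0.208, 0.059, −0.007 and −0.271; adjusted permutation p 0.398, 0.964, 0.974 and 0.326 for r).

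**Figure D5:**
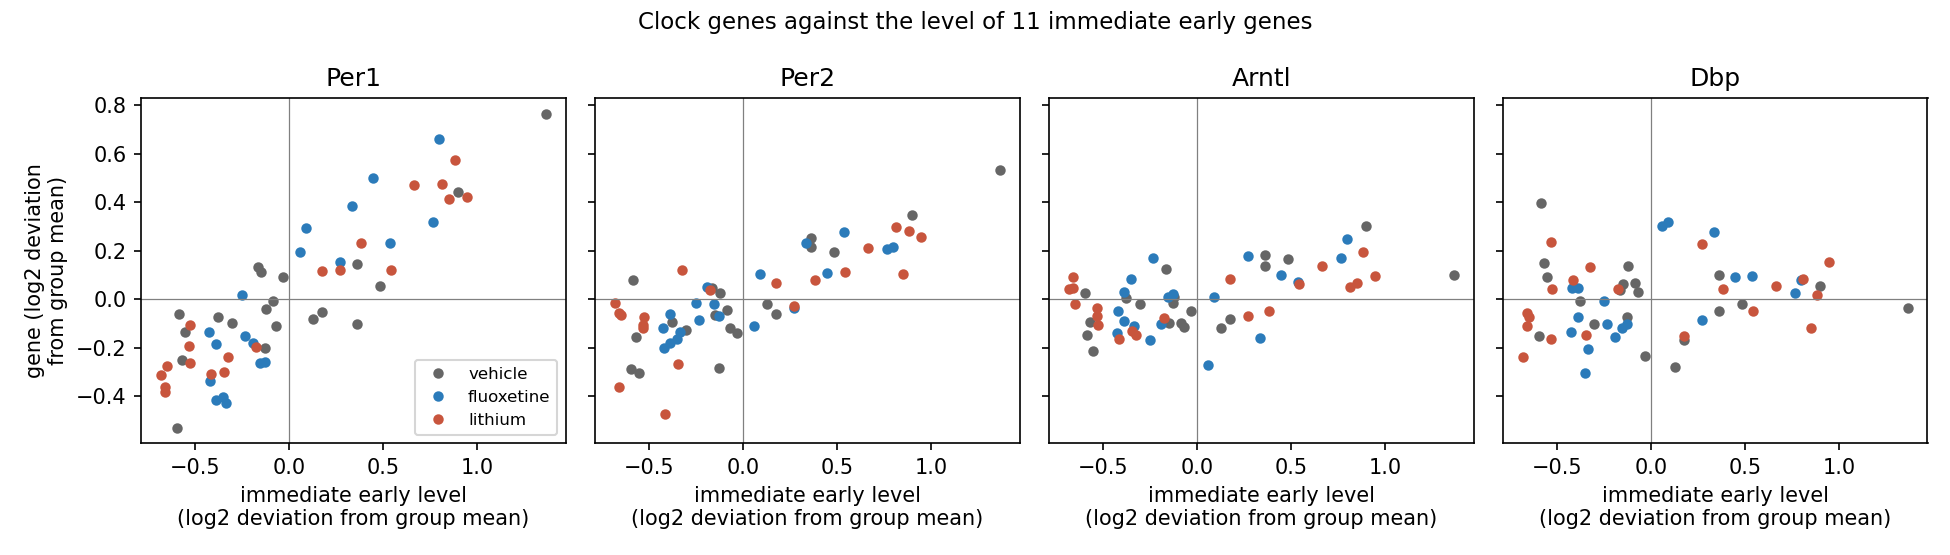
Log2 deviation from the group mean of Per1, Per2, Arntl and Dbp (vertical axis) against that of the mean level of 11 immediate early genes (horizontal axis), 1 point per library, coloured by treatment. Per1 rises along the axis (r 0.888) and Dbp does not (r 0.159).

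With the immediate early level regressed out, 5 of 45 pairs had an absolute r of at least 0.5, without a share over all gene pairs beside it. Among the 5 was Cry1 with Nr1d1, a negative pair that went from −0.407 to −0.513. Per1 with Per2 was then 0.244, Per2 with Nr1d1 0.234 and Arntl with Per1 −0.112, while Per2 with Cry2 was 0.638 and Nr1d1 with Dbp 0.606. The library with the highest immediate early level, an HT-labelled vehicle male (replicate 1), also held the highest Per1 (5018), Per2 (2348) and Cry2 (4871). Library composition moved with members inside and outside the block. Cry2 had r = 0.732 with the excitatory neuron level and −0.623 with the olfactory bulb level, Nr1d1 0.626 and −0.551, Per2 0.594 and −0.458, and Per1 0.513 and −0.486. Their rho was 0.711 and −0.616, 0.682 and −0.564, 0.588 and −0.445, and 0.528 and −0.463 (adjusted permutation p 0.00017 to 0.00548 for r and 0.000155 to 0.00676 for rho). Without the 2 farthest libraries r was 0.694 and −0.618, 0.648 and −0.600, 0.543 and −0.437, and 0.485 and −0.474. The excitatory neuron relation was 0.717, 0.642, 0.573 and 0.580 in males and 0.761, 0.656, 0.651 and 0.446 in females. The olfactory bulb relation was −0.599, −0.530, −0.413 and −0.541 in males and −0.663, −0.592, −0.517 and −0.430 in females. Cry2 and Nr1d1 also had r of −0.646 and −0.562 with the astrocyte level and −0.516 and −0.549 with the meningeal fibroblast level (adjusted permutation p 0.000425, 0.00155, 0.000486 and 0.000425; rho −0.663, −0.601, −0.574 and −0.602). The r of Cry2 and of Nr1d1 with the excitatory neuron level was thus close to that with the immediate early level, and the part of each was not tested.

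Cry1 had r = 0.648 with the olfactory bulb level and −0.568 with the excitatory neuron level, and Npas2 had −0.647 and 0.670 (adjusted permutation p 0.00017, 0.000243, 0.00017 and 0.00034; rho 0.641, −0.556, −0.627 and 0.591). Without the 2 farthest libraries these were 0.682, −0.579, −0.621 and 0.632. Males and females gave 0.653 and 0.644, −0.573 and −0.573, −0.710 and −0.561, and 0.655 and 0.702. With both composition levels regressed out, 6 of 45 pairs had an absolute r of at least 0.5, and Npas2 with Cry1 was −0.002. The share over all gene pairs was not taken with these levels removed. Cry1 then had r of 0.542 with Per2, 0.474 with Cry2, 0.325 with Per1 and −0.033 with Nr1d1, so it did not stand apart from the whole block at this setting. The 5 leading pairs of the block were then 0.763 for Per2 with Cry2, 0.704 for Per1 with Per2, 0.654 for Per1 with Cry2, 0.632 for Per1 with Nr1d1 and 0.447 for Cry2 with Nr1d1. The remaining pair, Per2 with Nr1d1, was 0.389.

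The genes most like each member, by Pearson r of the same deviations among 16829 other genes, differed between members. For Per1 they were Arc, Junb and Bhlhe40 (r 0.920, 0.913 and 0.913), of which the first and second are in the immediate early list, and for Per2 they were Egr2, Irs2 and Egr1 (0.904, 0.878 and 0.875). Cry2 was closest to Irs2, Acap3 and Egr4 (0.888, 0.877 and 0.859), and Nr1d1 to Ahdc1, Jade2 and Fam43b (0.884, 0.871 and 0.854). Dbp was closest to Ciart (0.678), Sparcl1 (0.639) and Pigs (0.636), and its relatives Tef and Hlf had r of 0.621 and 0.517 with it.

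Arntl was closest to Spred2, Prag1 and Znrf1 (0.727, 0.702 and 0.700), Clock to Herc1 and Vps13c (0.816 and 0.778), and Npas2 to Cyp46a1, Kctd17 and Sept5 (0.794, 0.784 and 0.782). Among the genes closest to Cry1 were Selenom and Ybx1 (0.753 and 0.750). Per3 had the weakest likeness of the 10, to Galc, Zmym3 and Prkd1 (0.548, 0.543 and 0.535). The lowest r belonged to 1190002N15Rik for Per1 (−0.875), Rps26 for Clock (−0.819), Ankrd34c for Cry2 (−0.835), Mkrn3 for Nr1d1 (−0.815), Ttc30b for Per2 (−0.806), Tmem245 for Cry1 (−0.779), Pnrc2 for Npas2 (−0.771), Fstl1 for Arntl (−0.707), Hectd2 for Dbp (−0.636) and Tent4a for Per3 (−0.583).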

How the data were processed

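Polyadenylated RNA from mouse prefrontal cortex was sequenced in 59 libraries. The kit kept strand, per the labels' protocols. The deposited values are a normalized signal, taken from the values to be estimated counts divided by a factor per library, in 1 table of 51456 genes. Salmon 0.11.2, R 3.6.0, DESeq2 1.19.11 and GRCm38 are named, with no role or order, per the submitters' processing notes. Values are not whole, so no count model was fitted.

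Groups were taken from the labels. A model with a mean for each of the 12 groups was fitted with limma 3.58.1 (R 4.3.3, statmod 1.5.0) to log2(value + 1), with trend and robust shrinkage, for 16839 genes with a mean of at least 10, and p-values were adjusted by Benjamini-Hochberg over all of them at 0.05. Errors after ± are SE. Fold changes on this scale are understated for low genes. Correlations used deviations from group means, with 100000 two-sided permutations of libraries within groups. The fit was tested on simulated data. The members, gene lists, tests and named-gene rule were chosen with earlier results of these data known. The named genes were all 10 members, other pathway and cue genes where called in an averaged contrast, and for each member the 3 genes most like and the 1 least like it. A few genes that this rule names are not reported here. Other named pathway genes (Nr1d2, Ciart, Tef, Hlf) and the overlapping genes were chosen after their values were seen. Alternatives were limma without trend, TMM factors, another pseudocount of 0.5, no filter, covariates, a replicate block, fits without 8 striatum-rich libraries, and each library left out. Exon positions come from the GRCm38 annotation.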

Additional observations from a re-analysis of the deposited data

Results flagged for a closer look

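Over 120 sets of 1 clock gene in 1 group, 5 had a highest or lowest library whose gap to its neighbour exceeded Dixon's 95% critical value, where chance alone flags about 6. Clock was low in WT-labelled vehicle male replicate 5 (3758, the others 4043 to 4120). Per1 was high in WT-labelled vehicle female replicate 1 (3430, the others 2197 to 2424). Per3 was low in HT-labelled fluoxetine male replicate 1 (1361, the others 1547 to 1612) and high in WT-labelled vehicle female replicate 3 (2032, the others 1577 to 1694). Dbp was low in HT-labelled vehicle female replicate 5 (1412, the others 1695 to 1778).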

How the results depend on the processing

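Over 11 alternatives the lithium call of Dbp held (adjusted p 0.00393 to 0.0469), as did those of Clock and Dbp against fluoxetine (0.00782 to 0.0456 and 0.00575 to 0.0359). The count of members called with lithium was 2 with the first principal component, the immediate early level or the olfactory bulb level as a covariate, and 2 in HT-labelled libraries with the first principal component. Against fluoxetine it was 4 with the first principal component or the olfactory bulb level, and 2 to 3 with 1 library left out. The pairs with an absolute r of at least 0.5 numbered 5 with the immediate early level regressed out, 6 with excitatory neuron and olfactory bulb levels, 6 with olfactory bulb and striatum levels, and 9 to 12 with 1 library left out. The immediate early and excitatory neuron adjustments were chosen after seeing the data, and the cause of these moves was not tested. Shares of all genes called, or of all pairs at that r, are not given here for these settings. A shift of the members alone and a general one thus cannot be told apart from these counts.

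Uncalled members changed sign. With the immediate early level as a covariate, the lithium differences of Cry2 and Per1 were −0.012 and −0.047, and that of Per1 against fluoxetine −0.016. With the first principal component, Npas2 was −0.0014 with lithium and 0.0049 against fluoxetine, and Cry2 0.0026 against fluoxetine. With the olfactory bulb level, Npas2 and Cry2 were 0.0061 and 0.00302 against fluoxetine, and without the 8 striatum-rich libraries Npas2, Cry2 and Per3 were 0.0037, 0.017 and −0.0037. With 1 library left out, Cry2 ranged from −0.018 to 0.0040 and Npas2 from −0.026 to 0.013 against fluoxetine. The r of Arntl with Dbp was 0.055 in females, that of Arntl with Per1 −0.112 without the immediate early level, and that of Npas2 with Nr1d1 −0.191 with excitatory neuron and olfactory bulb levels and −0.033 with olfactory bulb and striatum levels regressed out.

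Replicate numbers, whose meaning is not given, were not taken to pair the samples. Over all genes, 123 of 319 same-number pairs of libraries correlated above 0.1, a share not taken for different numbers. The median of same-number pairs was 0.048, against −0.019 for pairs of different numbers, and 19 of 59 libraries were closest to their own number. Some likeness by number was thus present, and the contrasts had no term for it except where a block is named. With the number as a replicate block, 2 members were called with lithium and 4 against fluoxetine, 5 pairs reached an absolute r of 0.5, and Npas2 with Nr1d1 was −0.076. Shares over all genes and all pairs with this block are not given here. The members gained were Nr1d1 with lithium, and Per2 and Nr1d1 against fluoxetine. The clock genes of the correlated block nonetheless followed the number more than most genes did. Values carry no counts, so no counting interval is given.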
